A study of Drosophila melanogaster with 12 samples.

Results

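The genes described here encode the proteins of the cytoplasmic ribosome of Drosophila melanogaster. They were taken from the Ensembl annotation as the protein-coding genes whose symbol is RpL, RpS or RpLP followed by a digit, without regard to any measured value. The rule found 92 genes, of 18119 genes tested in the same data. Of these, 50 are named as proteins of the large subunit (RpL), 38 as proteins of the small subunit (RpS) and 4 as proteins of the stalk of the large subunit (RpLP0, RpLP0-like, RpLP1 and RpLP2).

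Ribosomal protein genes are short, are transcribed at a high rate in almost every cell, and are a common choice of reference genes because of that. Polycomb-like (Pcl) is a subunit of the Polycomb Repressive Complex PRC2.1, which methylates histone H3 and keeps developmental genes, such as the Hox genes, silent. Active genes of general function are not classical targets of the complex.

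Pcl occupancy was measured by targeted DamID (TaDa), in which a protein is fused to a bacterial DNA adenine methyltransferase (Dam) that marks GATC sites near the places it visits. UAS-LT3-Dam::Pcl was expressed with Gr5a-GAL4;tubulin-GAL80ts, so that Gr5a restricts it to the sweet taste neurons and warmth switches it on. There were 3 Dam::Pcl samples from flies on a sugar diet (SD, 30% sucrose) and 3 from flies on a control diet (CD, 5% sucrose). Each sample held DNA from 300 heads of males and females, which the labels call biological replicates. Both groups carried the same transgenes and went through the same steps, with flies collected 2 days after eclosion, put on their diet at day 5 and moved to 29C at day 6 for a further day, whereas the sample titles read 4 days and the study's own text gives another diet length and temperature. A further 3 samples per diet came from flies that expressed Dam alone, and the deposited value of a GATC fragment is the ratio of Dam::Pcl over Dam on the log2 scale. The Dam-only samples were not analysed here, so more Dam::Pcl and less Dam alone cannot be told apart in any value below. The files measure occupancy and not RNA, so markers of the sweet taste neurons were not checked as expression.

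Each gene was given the length-weighted mean of the log2(Dam::Pcl/Dam) over its annotated span and 1000 bp on either side. A value of 0 means as many scaled Dam::Pcl reads as Dam reads, and a difference of 1 between diets is a 2-fold change of the ratio. The windows of the ribosomal protein genes held 4 to 31 GATC fragments, with a median of 12. For scale, the Hox gene Abd-B averaged 4.08 ± 0.39 on SD and 3.91 ± 0.20 on CD (SD of the samples, n = 3 each), a difference of 0.17 that was not called (limma, adjusted p = 0.534).

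The ribosomal protein genes lay below the genome on both diets. Their median level was -0.44, -0.44 and -0.43 in the 3 SD samples and -0.25, -0.39 and -0.36 in the 3 CD samples. The median of all genes tested averaged -0.03 ± 0.02 on SD and 0.04 ± 0.04 on CD (SD, n = 3 each). In each of the 6 samples the median of the ribosomal protein genes was thus under that of all genes. By the mean over replicates, 75 of the 92 genes (81.5%) were below 0 on SD and 73 (79.3%) on CD, against 52.9% of all genes on SD and 44.7% on CD. The genes below 0 on both diets numbered 65, and those above 0 on both numbered 9.

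**Figure D1:**
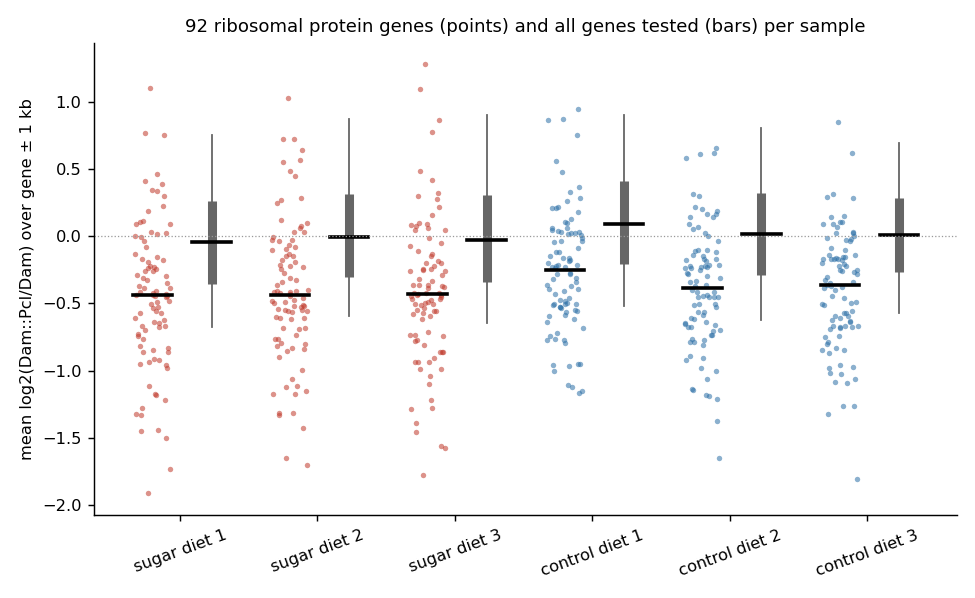
Level of the 92 ribosomal protein genes (points, one per gene) in each sample, as mean log2(Dam::Pcl/Dam) over the gene and 1000 bp on each side, beside all 18119 genes tested (thick bar, middle 50%; thin line, 10th to 90th percentile). Horizontal strokes are medians, which lie between -0.44 and -0.43 for the ribosomal protein genes in the SD samples and between -0.39 and -0.25 in the CD samples.

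The level varied with the position in the window. The median over the gene span was -0.42 ± 0.02 on SD and -0.39 ± 0.05 on CD. In the 1000 bp before the start it was -0.35 ± 0.01 on SD and -0.20 ± 0.07 on CD, and in the 1000 bp after the end -0.39 ± 0.02 on SD and -0.25 ± 0.06 on CD. The diets were thus closest over the span and further apart in the flanks, where SD was the lower. The other 13849 protein-coding genes showed the same order, with -0.03 on SD and -0.02 on CD over the span, -0.046 on SD and 0.09 on CD before the start, and -0.10 on SD and 0.03 on CD after the end.

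In bins of 100 bases around the annotated start the diets crossed. Between 400 and 300 bases before the start, the median of the ribosomal protein genes was -0.47 ± 0.04 on SD and -0.20 ± 0.10 on CD. Between 400 and 500 bases after it, the median was -0.38 ± 0.03 on SD and -0.61 ± 0.08 on CD. SD was therefore lower before the start and higher just inside the gene. The other 13849 protein-coding genes showed the same crossing about a higher level, with -0.01 ± 0.07 on SD and 0.20 ± 0.09 on CD before the start, and 0.14 ± 0.04 on SD and -0.01 ± 0.05 on CD after it. Between 1600 and 1700 bases after the start, the ribosomal protein genes read -0.46 ± 0.03 on SD and -0.24 ± 0.09 on CD. SD was thus the lower again there, while the other genes had 0.05 ± 0.03 on SD and 0.06 ± 0.05 on CD. The bin is not a like place in the 2 sets. The median span was 1315 bp in the ribosomal protein genes and 2167 bp in all protein-coding genes tested. In the 1000 bp after the end, SD was the lower in both sets. These profiles are a description with no test, and the crossing near the start is not particular to the ribosomal protein genes.

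**Figure D2:**
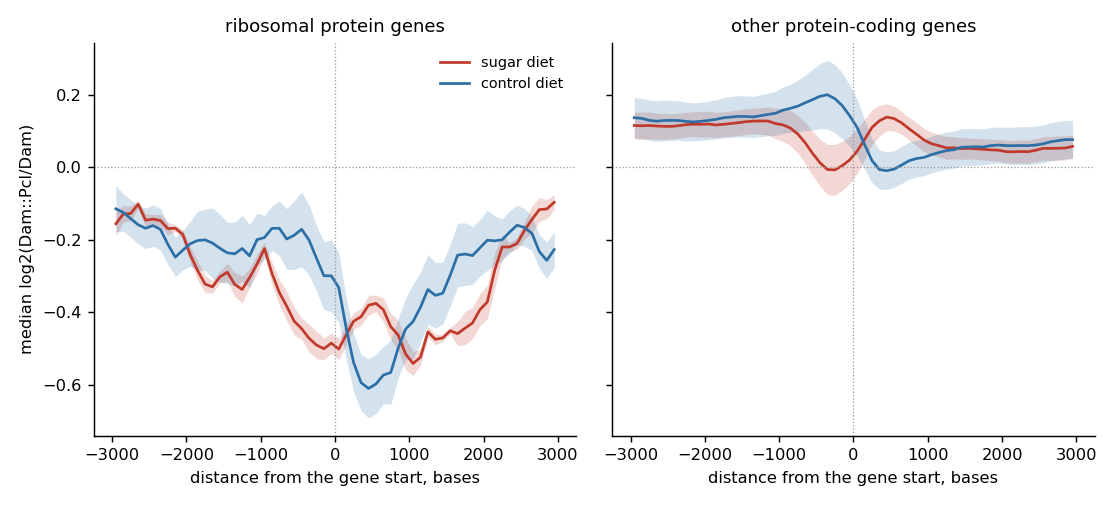
Median log2(Dam::Pcl/Dam) in bins of 100 bases from 3000 bases before to 3000 bases after the annotated gene start, for the ribosomal protein genes (left) and the other protein-coding genes (right). Lines are the mean of the 3 samples of a diet (SD red, CD blue) and bands are ± 1 SD over samples; the ribosomal protein genes dip to -0.61 on CD between 400 and 500 bases after the start, where SD stands at -0.38.

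The question of the diet comparison was whether occupancy of Pcl in these neurons differs between flies fed the 2 foods. Each gene was tested on its log2 values with limma, SD minus CD, and called at a Benjamini-Hochberg adjusted p under 0.05 over all genes tested. Of the ribosomal protein genes, 21 were higher on SD (22.8%) and 23 were lower (25%), and 48 did not pass. Over all genes tested, 22.3% were called higher and 25.7% lower, so the shares of the ribosomal protein genes were near the background in both directions. At an unadjusted p under 0.05 there were 50 of the 92, but the share of all genes at that threshold was not computed. SD and CD samples were fully separated at 55 ribosomal protein genes (59.8%), 28 of them higher on SD and 27 lower, against 59.9% of all genes. All 44 called genes were among the 55.

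The median difference of the 92 genes was 0.04, against -0.01 over all genes tested. The single differences nevertheless ran between -2.12 and 1.61, with an SD over genes of 0.554, against 0.468 over all genes. The 21 higher genes differed by 0.24 to 1.61, with a median of 0.47, and their median level was 0.05 on SD and -0.62 on CD. The 23 lower genes had a median difference of -0.71, and their median level was -0.89 on SD and -0.12 on CD. Across the 92 genes the levels on the 2 diets were only loosely related (Pearson's r = 0.363 and Spearman's rho = 0.314 over the 92 genes, against 0.81 and 0.618 over all 18119). These coefficients run across genes that share the same 6 samples and are a description.

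**Figure D3:**
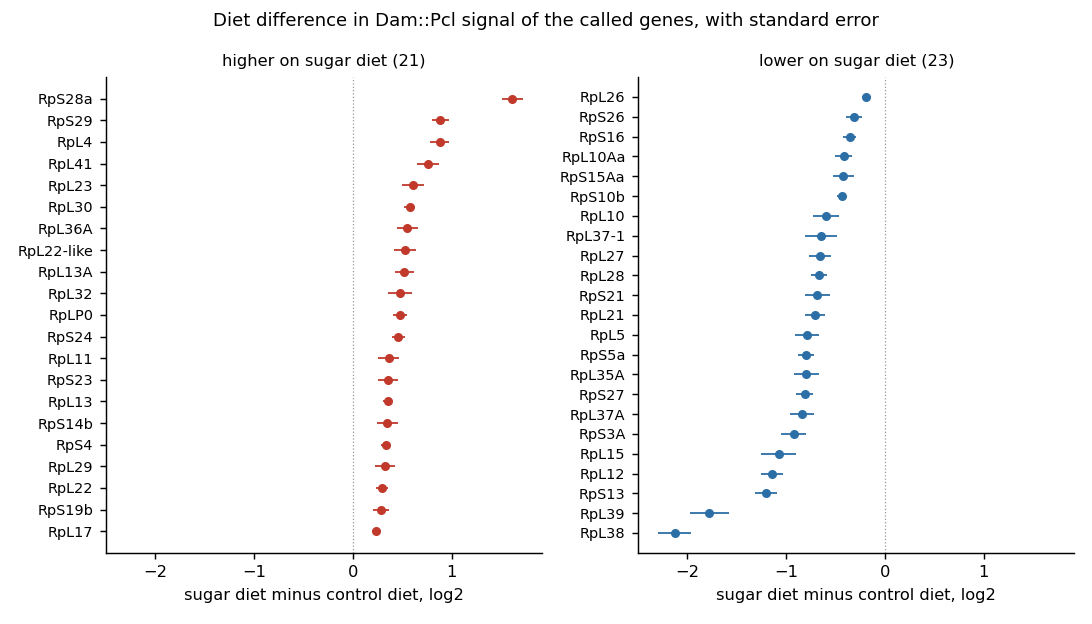
Difference in log2(Dam::Pcl/Dam), SD minus CD, of the 44 called ribosomal protein genes with the standard error from limma, in descending order. The 21 genes called higher (left, red) reach 1.61 at RpS28a, and the 23 called lower (right, blue) reach -2.12 at RpL38.

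RpS28a had the largest rise. It encodes a form of the small subunit protein eS28, which sits near the exit of the mRNA channel, and its intronless gene lies at chr3R:30022345-30022648 on the minus strand (FBgn0039739, BDGP6). Its level was 0.46, 0.72 and 0.77 in the SD samples, against -0.96, -1.07 and -0.85 in the CD samples. The diets were fully apart, with a difference of 1.61 (SE 0.10, adjusted p = 0.00168, limma). Among all genes tested, RpS28a stood at the 87.4th percentile on SD and at the 2.05th percentile on CD. In 7 of its 8 GATC fragments all SD samples lay above all CD samples, though neighbouring fragments of 19 and 6 bp held the same values. The share of all fragments separated in this way was not computed. RpS28a was picked for its rise, so its fragments add no separate support. Axn and Mgat2 cover 73.1% of that window, so the values cannot be given to RpS28a alone.

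RpS29 and RpL4 were the next by size. RpS29, a small zinc-binding protein of the small subunit (chr3R:9778042-9779528, plus strand), had -0.35, -0.52 and -0.29 in the SD samples and -1.17, -1.38 and -1.27 in the CD samples, a difference of 0.88 (SE 0.09, adjusted p = 0.00208). On CD it was among the 5 lowest of the 92 genes. RpL4, a large subunit protein that reaches into the exit tunnel of the peptide (chr3R:27922821-27924888, plus strand), had 0.39, 0.06 and 0.27 in the SD samples and -0.55, -0.74 and -0.63 in the CD samples, a difference of 0.88 (SE 0.10, adjusted p = 0.0026).

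RpL41 and RpL23 completed the 5 largest rises. RpL41, which encodes a very short basic peptide of the large subunit, had -0.31, -0.21 and -0.11 in the SD samples and -0.76, -1.14 and -1.02 in the CD samples, a difference of 0.76 (SE 0.11, adjusted p = 0.00446). The whole of its window lies inside NaCP60E, a gene for a voltage-gated cation channel subunit. RpL23, a protein at the interface of the subunits, had 0.77, 0.72 and 1.10 in the SD samples and 0.22, 0.21 and 0.31 in the CD samples, a difference of 0.61 (SE 0.11, adjusted p = 0.00799), and was the only one of the 5 above 0 in all 6 samples. Over the gene span alone its difference of 0.51 was not called (adjusted p = 0.0865).

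RpL38 had the largest fall. It encodes the large subunit protein eL38, which in the mouse is needed for the translation of certain Hox mRNAs, and lies at chr2R:4515388-4516458 on the minus strand (FBgn0040007). Its level was -1.50, -1.43 and -1.56 in the SD samples, against 0.94, 0.66 and 0.28 in the CD samples. The difference was -2.12 (SE 0.17, adjusted p = 0.00184, limma), and RpL38 stood at the 0.403rd percentile of all genes on SD and at the 87.1st on CD. No other coding gene touches its window. All 4 of its fragments had every SD sample below every CD sample. The share of all fragments separated in this way was not computed, and RpL38 was picked for its fall, so its fragments add no separate support. The fragment that starts 245 bases inside the gene read -2.05, -1.97 and -2.13 on SD and 0.94, 0.78 and 0.28 on CD. It is 1876 bp long and takes up most of the window.

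RpL39 and RpL12, also among the 5 largest falls, are neighbours whose spans overlap on 2R, so their windows share 2008 bp and are not independent. RpL39, a short basic protein in the exit tunnel, had -1.32, -1.18 and -1.29 in the SD samples and 0.87, 0.58 and 0.09 in the CD samples, a difference of -1.78 (SE 0.20, adjusted p = 0.00257). RpL12, a protein at the base of the stalk, had -0.93, -0.85 and -0.81 in the SD samples and 0.48, 0.30 and 0.06 in the CD samples, a difference of -1.14 (SE 0.11, adjusted p = 0.00208). Both were above 0 in each CD sample and below 0 in each SD sample.

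RpS13 and RpL15 made up the 5 largest falls. RpS13, a small subunit protein (chr2L:8363477-8364662, minus strand), had -0.86, -0.79 and -0.94 in the SD samples and 0.56, 0.32 and 0.14 in the CD samples, a difference of -1.20 (SE 0.11, adjusted p = 0.00207). RpL15, a large subunit protein (chr3L:27267255-27268445, plus strand), had -1.91, -1.65 and -1.78 in the SD samples and -0.47, -0.56 and -1.08 in the CD samples, a difference of -1.07 (SE 0.18, adjusted p = 0.0063). Unlike the other 4, RpL15 was below 0 on both diets.

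The starts of these genes are shown to compare the base composition and the start motifs of genes that moved in opposite directions. They are RpS28a, RpS29 and RpL4 among the genes that rose, and RpS13, RpL15 and RpS3A among those that fell, given from 100 bases before the annotated start to 30 bases from the start on, read from the Release 6 reference genome along the gene's own strand. Capitals mark GATC, the site that Dam methylates, and TATCGATA, the DNA replication-related element (DRE). They also mark CTTTT or CTTTC lying wholly within 10 bases of the start, the TCT type of initiator. Positions are chr3R:30022619-30022748 for RpS28a, chr3R:9777942-9778071 for RpS29, chr3R:27922721-27922850 for RpL4, chr2L:8364633-8364762 for RpS13, chr3L:27267155-27267284 for RpL15 and chr4:67178-67307 for RpS3A.
RpS28a: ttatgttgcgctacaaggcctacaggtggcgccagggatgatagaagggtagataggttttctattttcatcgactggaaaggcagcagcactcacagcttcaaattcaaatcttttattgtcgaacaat
RpS29: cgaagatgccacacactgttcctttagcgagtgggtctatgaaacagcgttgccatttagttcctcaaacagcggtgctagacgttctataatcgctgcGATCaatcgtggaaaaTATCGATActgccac
RpL4: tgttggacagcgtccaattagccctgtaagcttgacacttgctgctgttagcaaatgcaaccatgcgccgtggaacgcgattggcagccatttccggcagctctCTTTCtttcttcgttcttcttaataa
RpS13: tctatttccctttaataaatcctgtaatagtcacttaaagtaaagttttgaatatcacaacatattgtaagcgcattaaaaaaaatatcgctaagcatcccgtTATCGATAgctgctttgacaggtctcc
RpL15: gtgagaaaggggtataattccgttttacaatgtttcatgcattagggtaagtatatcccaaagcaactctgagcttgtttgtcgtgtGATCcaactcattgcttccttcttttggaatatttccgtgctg
RpS3A: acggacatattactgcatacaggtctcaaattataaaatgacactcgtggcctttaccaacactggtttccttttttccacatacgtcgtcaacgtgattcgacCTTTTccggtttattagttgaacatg

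These stretches were 43.1% G and C in RpS28a, 46.9% in RpS29 and 48.5% in RpL4, the genes that rose. They were 33.1% in RpS13, 40% in RpL15 and 40% in RpS3A, the genes that fell. RpL4 and RpS3A hold a TCT initiator, and RpS29 and RpS13 a DRE, so either motif occurs on both sides. The starts of RpS28a and RpL15 hold neither wholly within these limits, though a CTTTT of RpL15 begins inside the limit and runs past it.

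The motifs were counted in all members from 250 bases before to 50 bases after the start, on both strands, and in the same window of all 13941 protein-coding genes tested. The TCT initiator, searched as CTTTT or CTTTC within 10 bases of the start on the coding strand only, is the start element known for genes of the translation machinery, and was present in 38 ribosomal protein genes (41.3%), against 5.36% of protein-coding genes. TATCGATA was present in 28 (30.4%), against 9.36%. Among the called genes, 4 of the 21 higher (19.0%) and 9 of the 23 lower (39.1%) held TATCGATA, and 42.9% of those higher and 30.4% of those lower held the TCT initiator. GATC itself was in 27 (29.3%), against 45.2%, so fewer of their starts held a site that Dam can methylate. GAGAG, the core that GAGA factor binds, was in 17.4%, against 29.7%, and TATAAA in 47.8%, against 45.8%. These words differed between the called genes too, with TATAAA in 28.6% of those higher and 60.9% of those lower, and GAGAG in 28.6% and 8.7%. The median GC content of the starts was 42% in those higher and 35.7% in those lower. Whether the shares follow base composition was not tested. A TATCGATA and a GATC cannot share a base, and a match is only a run of letters.

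The size and the direction of the diet difference went with the GC content of the window. Over the 92 genes, GC content and difference had a Pearson's r of 0.798 and a Spearman's rho of 0.737, against 0.672 and 0.683 over all genes tested, and the fitted slope was 1.21 on the log2 scale per 10 percent of GC, against 0.79 over all genes. The median GC content was 46.7% in the genes called higher (42.2 to 50.4%), 39.5% in those called lower (33.1 to 43.2%) and 45.1% in those not called. RpS28a, with the largest rise, had the highest GC content of all 92 (50.4%), and RpL38, with the largest fall, the lowest (33.1%).

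Divided into 3 classes by GC content, the 31 genes of 33.1 to 42.4% held 1 called higher and 22 called lower, with a median difference of -0.65. The middle 31 held 6 called higher and 1 called lower, with a median of 0.07, against 19.6% higher and 15% lower of all genes in that range, with a median of 0.03. The 30 genes of 45.9 to 50.4% held 14 called higher and none called lower, with a median of 0.27. All genes of the lowest range were called lower in 49.8% and higher in 2.63%, with a median of -0.27, and those of the highest range were called higher in 54.0% and lower in 3.14%, with a median of 0.27. The class lowest in GC among the ribosomal protein genes lay at -0.75 on SD and -0.12 on CD, and the highest class at -0.35 on SD and -0.59 on CD, so the order of the classes by level differed between the diets. All genes of the lowest range lay at -0.06 on SD and 0.22 on CD. Those of the highest range lay at -0.03 on SD and -0.27 on CD, so the fall with GC content on CD was shared by all genes.

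The values were therefore also fitted after each sample's deviation from the mean of the 6 had been corrected for GC content and its square. The size of this correction could vary with the level, but the level itself was not taken out. After the correction, 10 ribosomal protein genes were higher on SD (10.9%) and 20 lower (21.7%), against 14.1% and 19.3% of all genes. Of the 21 genes called higher as deposited 9 remained, and RpS7 was added. Of the 23 called lower 14 remained, and RpL3, RpL34a, RpL23A, RpL18, RpL24-like and RpS25 were added. No gene was called in opposite directions in the 2 fits. The median difference of the 92 genes became -0.076, and the correlation with GC content 0.392, against -0.0361 over all genes, so a relation to GC content remained in these genes. RpS28a differed by 1.11 after the correction (adjusted p = 0.00221), RpS29 by 0.57, RpL4 by 0.41, RpL38 by -1.15 (adjusted p = 0.00221), RpL39 by -1.34, RpS13 by -0.96 and RpL12 by -0.70, and all of these stayed called. RpL41 (0.32, adjusted p = 0.0771) and RpL15 (-0.44, adjusted p = 0.0527) did not. RpS3A, which lies on chromosome 4 and had a difference of -0.92 as deposited, came to -0.03. Whether the relation to GC content comes from the libraries or from the chromatin was not tested.

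**Figure D4:**
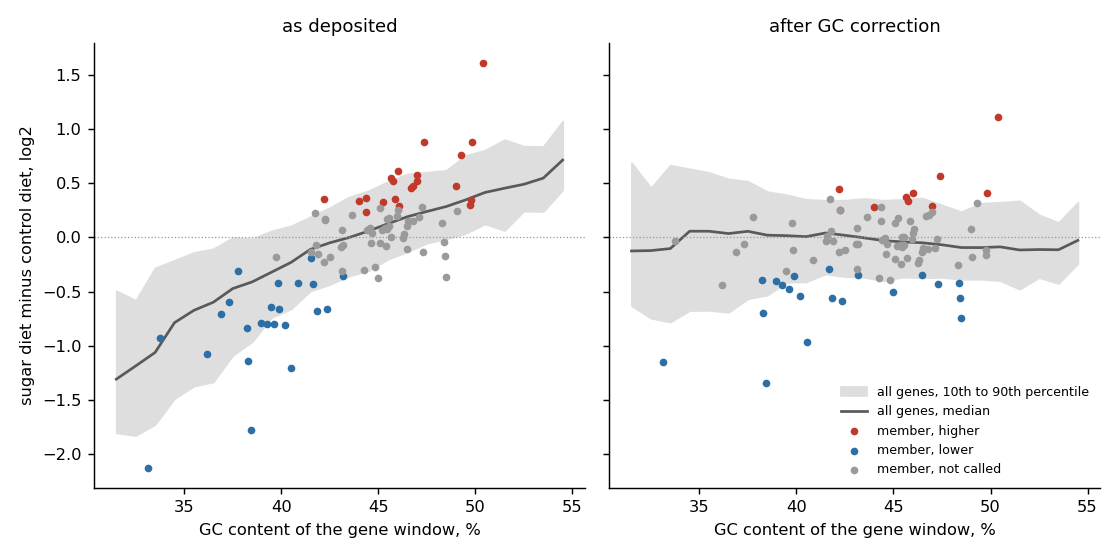
Difference in log2(Dam::Pcl/Dam), SD minus CD, against the GC content of the gene window, as deposited (left) and after GC correction (right). Points are the 92 ribosomal protein genes, coloured by the call in that fit; the line is the median of all genes in bins of 1 percent GC and the band their 10th to 90th percentile. On the left the genes called lower lie at 33.1 to 43.2% and those called higher at 42.2 to 50.4%.

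RpL32 and RpL3 serve the study in other roles, RpL32 as the reference gene of its quantitative PCR and RpL3 as the tagged protein with which ribosomes were pulled down. RpL32 had -0.51, -0.13 and -0.42 in the SD samples, against -0.78, -0.98 and -0.74 in the CD samples. It was called higher on SD, with a difference of 0.48 (SE 0.12, adjusted p = 0.0226), but not after GC correction (0.21, adjusted p = 0.207). The difference was uneven along its window, since its last fragment, 1403 to 1991 bases from the start, read -0.45 on SD and -2.33 on CD on average, while between positions -388 and -92 relative to the start SD averaged -0.13 and CD 0.52. Without the CD sample 1 or 2 its call was lost (adjusted p = 0.0538 and 0.0705). RpL3 had -0.43, -0.51 and -0.45 in the SD samples and -0.40, -0.53 and -0.34 in the CD samples, and its difference of -0.04 was not called (adjusted p = 0.582). After GC correction RpL3 was called lower, by -0.42 (adjusted p = 0.0047), so the call of each gene differed between the 2 fits.

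Only RpS23 lay at a Pcl peak. Peaks were intervals of consecutive fragments above the highest quantiles of a sample, and those present in all 3 samples of a diet were counted as common. There were 1522 common peaks on SD and 1505 on CD, and 6.55% of all genes tested, but 1 of the 92 ribosomal protein genes (1.09%), had a window that overlapped one. All 8 Hox genes did. RpS23, which encodes a protein of the decoding centre (chr2R:14215096-14216627, minus strand), was the highest of the 92 on both diets, with 1.10, 1.03 and 1.28 in the SD samples and 0.87, 0.61 and 0.85 in the CD samples.

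The peak lay beyond the 3′ end of RpS23 and did not reach its span. It ran over chr2R:14210133-14214756 on SD (4624 bp) and over chr2R:14214183-14214756 on CD (574 bp). Only peaks that touch the window were listed, so further CD peaks beyond it are not covered and the 2 lengths cannot be compared. The fragment just past the CD edge still read 1.91, 1.92 and 2.47 on CD. The fragment at 1871 to 2133 bases from the start read 2.98, 2.90 and 5.10 on SD and 2.10, 2.11 and 2.30 on CD, whereas the fragment that holds the start and most of the gene read 0.59, 0.54 and 0.13 on SD and 0.60, 0.22 and 0.45 on CD. The flank thus carried the highest values. The difference over the whole window was 0.36 (adjusted p = 0.0324), and around the start alone it was -0.0064.

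RpS28-like (0.75 on SD and 0.66 on CD), RpL38, RpL39 and RpS13 were the others among the 5 highest on CD. Among the lowest on CD were RpLP2 (-1.67 on SD and -1.54 on CD), RpS29, RpS20 (-0.98 on SD and -1.13 on CD) and RpS15 (-0.88 on SD and -1.07 on CD). None of RpS28-like, RpLP2, RpS20 and RpS15 was called in either direction over the window.

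RpLP2, an acidic protein of the stalk that recruits translation factors, differed locally between the diets in a way that its window mean did not show. Over the window it had -1.73, -1.70 and -1.57 in the SD samples and -1.15, -1.65 and -1.80 in the CD samples, and its difference of -0.13 was not called (adjusted p = 0.562). The fragment at 257 to 682 bases from the start, which holds the end of the gene, read -3.10, -2.57 and -2.81 on SD and -4.11, -5.39 and -5.08 on CD. The fragment at positions -836 to -409 relative to the start read -2.48, -2.49 and -1.85 on SD, against 1.02, 0.76 and -0.28 on CD. SD was therefore higher over the gene and lower before it, and over the gene span alone RpLP2 was called higher, by 1.52 (adjusted p = 0.00749). The coding genes Cdk4 and Dolk cover 38.7% of the window.

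Fruit flies carry duplicated copies of several ribosomal protein genes, and some copies are known to be used mainly in the germ line, such as RpS5b and RpS19b in the ovary and RpL22-like in the testis. By symbol there were 13 such sets with 27 genes. Of these genes 6 were called higher and 5 lower, and of the 65 genes without a paralog 15 were higher and 18 lower. Over all genes tested, 22.3% were called higher and 25.7% lower. In 9 sets a called gene stood beside an uncalled one, and no set held calls in both directions. In the set of RpL22 both were higher, and in 3 sets no gene was called.

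RpS28a was the member with the most different course in its set. RpS28b, the copy on X, had -0.49, -0.19 and -0.33 in the SD samples and -0.27, -0.10 and -0.10 in the CD samples (difference -0.18, adjusted p = 0.166), and RpS28-like had 0.75, 0.64 and 0.86 on SD and 0.75, 0.62 and 0.62 on CD (difference 0.09, adjusted p = 0.376). RpS28a and RpS28b have 76.9% of their coding bases in common and no identical run over 13 bases in their spans. GC content differs too, with 50.4% in the window of RpS28a, 39.7% in that of RpS28b and 44.6% in that of RpS28-like.

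RpS5a and RpS5b also differed in their calls. RpS5a, the broadly used copy, had -0.91, -0.83 and -0.93 in the SD samples and 0.06, -0.17 and -0.18 in the CD samples, a difference of -0.79 (SE 0.08, adjusted p = 0.00214). RpS5b had 0.03, 0.03 and -0.05 on SD and -0.09, -0.17 and 0.02 on CD, and was not called (difference 0.08, adjusted p = 0.352), though over its span alone it was called higher (0.72, adjusted p = 0.00823). RpS19b was called higher (0.29, adjusted p = 0.0343) and RpS19a was not (0.07, adjusted p = 0.444), but RpS19b was not called after GC correction (0.077, adjusted p = 0.529), and RpS19a was called higher with 5 kb flanks (0.46, adjusted p = 0.00677). RpL22 (0.30, adjusted p = 0.0108) and RpL22-like (0.53, adjusted p = 0.0134) were both higher, though only RpL22-like kept its call after GC correction (0.34, adjusted p = 0.0389, against -0.16 for RpL22).

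The copies that were called lower beside an uncalled partner were RpL10Aa (-0.42, partner RpL10Ab 0.07), RpL37-1 (-0.65, partner RpL37-2 -0.07) and RpS10b (-0.43, partner RpS10a 0.07). After GC correction only RpS10b kept its call, while RpL10Aa (-0.20, adjusted p = 0.0873) and RpL37-1 (-0.31, adjusted p = 0.14) did not. Around the start alone RpL37-1 (-0.056, adjusted p = 0.79) and RpS10b (-0.18, adjusted p = 0.0557) were not called, and over the span alone RpS10a was called higher (0.43, adjusted p = 0.0106). RpS10a has no annotated intron and lies wholly inside tau, the gene of a microtubule-binding protein. RpLP0, the core of the stalk, was called higher (0.47, adjusted p = 0.0047), with 0.41, 0.55 and 0.48 in the SD samples and 0.04, -0.11 and 0.09 in the CD samples, and RpLP0-like was not (0.19, adjusted p = 0.0659). The call of RpLP0 was lost after GC correction (0.077, adjusted p = 0.49) and around the start alone (0.12, adjusted p = 0.414). The pairs RpL7 and RpL7-like, RpL24 and RpL24-like, and RpL34a and RpL34b had no call over the window as deposited. Differences between the copies of a set were not tested.

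Reads of 2 pairs could have been placed on the wrong copy. The coding sequences of RpS15Aa and RpS15Ab were 98.2% identical, with an identical run of 132 bases in the spans, and those of RpS14a and RpS14b were 97.8% identical, with a run of 193 bases. The other pairs shared no run over 26 bases. RpS15Aa was lower (-0.42, adjusted p = 0.0234) and RpS15Ab had a difference of 0.03 (adjusted p = 0.728), while over the span alone RpS15Ab was called higher (0.33, adjusted p = 0.0368) and RpS15Aa was not called. After GC correction RpS15Aa came to -0.12 (adjusted p = 0.341). RpS14b was called higher (0.35, adjusted p = 0.0383) and RpS14a was not (0.24, adjusted p = 0.127), but these neighbours on X share 1780 bp of window, and after GC correction neither was called (RpS14b -0.12, RpS14a -0.18).

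**Figure D5:**
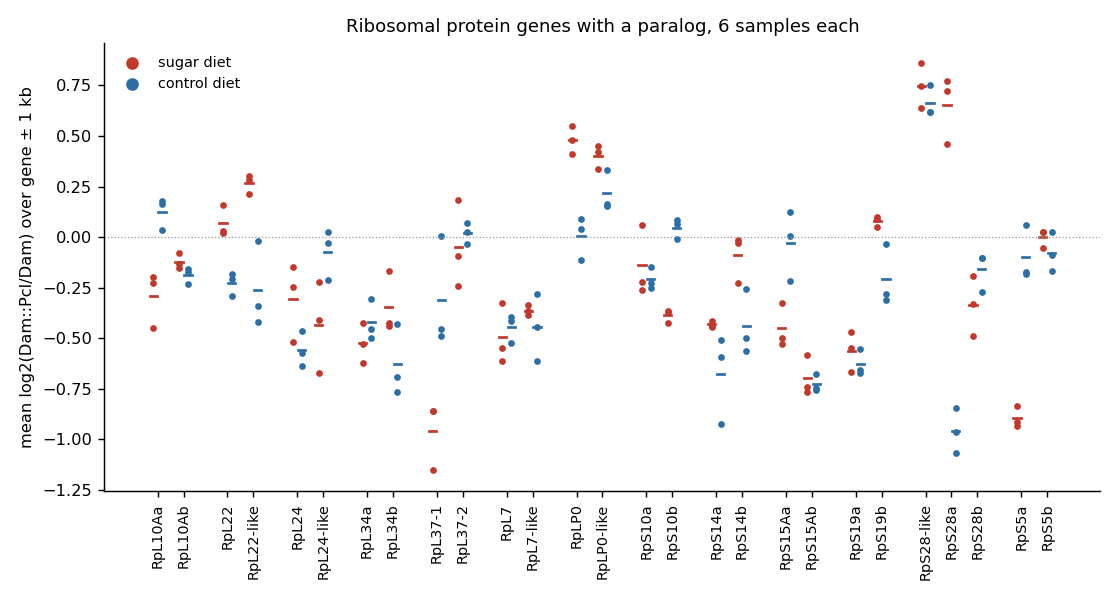
Mean log2(Dam::Pcl/Dam) over the gene and 1000 bp on each side in the 6 samples (points; SD red on the left, CD blue on the right) for the 27 ribosomal protein genes with a paralog, grouped by set, with strokes at the mean of 3 samples. RpS28a has the widest gap, with SD between 0.46 and 0.77 and CD between -1.07 and -0.85, while RpS28b and RpS28-like overlap between the diets.

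By subunit, 13 of the 50 RpL genes were higher (26%) and 14 lower (28%), with a median difference of -0.02. Of the 38 RpS genes 7 were higher (18.4%) and 9 lower (23.7%), with a median of 0.07. The shares of all genes tested were 22.3% higher and 25.7% lower. RpLP0 was the only stalk gene called. The stalk genes had a median level of 0.31 on SD and 0.03 on CD, as RpLP0, RpLP0-like and RpLP1 were above 0 and RpLP2 far below. By chromosome arm, 7 of the 21 genes on 2R were higher and 4 lower, 6 of the 23 on 3R were higher and 4 lower, 3 of the 19 on 2L were higher and 6 lower, 2 of the 14 on 3L were higher and 4 lower, and 3 of the 14 on X were higher and 4 lower. Of all genes tested, 26.1% on 2R, 24.2% on 3R, 17.1% on 2L, 19.3% on 3L and 25.5% on X were higher, and 21.3% on 2R, 21.6% on 3R, 29.8% on 2L, 30% on 3L and 24.7% on X were lower. RpS3A, the only one on chromosome 4, was lower, as were 89.8% of all genes there.

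Of the 6 genes within 5 Mb of the centromere-proximal end of an arm, 5 were lower (RpS10b, RpL21, RpL5, RpL15 and RpL38) and RpL30 was higher, with a median difference of -0.75. Of all 1517 genes there, 33.6% were lower, with a median of -0.06. After GC correction 3 of the 5 were called lower. All 5 lower genes lie in the class lowest in GC content, and how far GC content and position can be told apart was not tested.

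Most of the windows were shared with other genes. Another coding gene touched the window of 83 ribosomal protein genes, and 9 stood free of any. In addition, 28 of the 92 host small nucleolar RNAs, 74 in all, with 14 in RpS5a. In these compact windows a level belongs to the place and not to the ribosomal protein gene alone.

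Other gene groups of the translation and protein turnover machinery were described by counts and medians alone. Of 73 mitochondrial ribosomal protein genes 23 were higher and 17 lower (median difference 0.10), of 51 translation factor genes 15 were higher and 11 lower (0.10), of 18 aminoacyl-tRNA synthetase genes 7 were higher and 1 lower (0.11), and of 48 proteasome genes 19 were higher and 6 lower (0.12), against 22.3% higher and 25.7% lower of all genes. After GC correction the balance turned, with 7 higher and 17 lower of the mitochondrial ribosomal protein genes (median difference -0.076), 7 higher and 16 lower of the translation factor genes (-0.092), 1 higher and 6 lower of the synthetase genes (-0.14) and 2 higher and 11 lower of the proteasome genes (-0.10), against 14.1% higher and 19.3% lower of all genes. Their median levels lay between -0.27 and -0.06 on SD and between -0.34 and -0.20 on CD, so on SD the ribosomal protein genes had the lowest median of these groups, at -0.44, and on CD they were level with the mitochondrial ribosomal protein genes, at -0.34 each. The 8 Hox genes had a median of 2.81 on SD and 2.64 on CD, and none was called as deposited.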

How the data were processed

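The values are log2(Dam::Pcl/Dam) ratios per GATC fragment. The authors aligned reads with Bowtie2 to BDGP6 (dm6), discarded reads of low quality, extended them to the next GATC site or fragment length, and deposited the log2 ratio to Dam alone that damidseq_pipeline gives; which Dam-only sample stands in each ratio is not given in the sources used here, and replicates may share one. The files hold ratios and no reads, so the depth of each sample is unknown and no intervals from depth are given; 3 samples per diet limit the precision. Of the 373710 fragments on 2L, 2R, 3L, 3R, 4 and X, 8.27% were at 0 in all 6 samples. Fragment ends were checked against GATC sites of the Release 6 genome.

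Length-weighted means over gene spans (Ensembl release 115) with 1000 bp on each side were computed in Python 3.11.15 with pandas 2.3.3 for the 18119 genes, of 18164, with at least 2 fragments. The methods compare reads with DiffBind; since the deposited ratios hold none, limma 3.58.1 in R 4.3.3 was used (lmFit, eBayes, no covariates, two-sided, Benjamini-Hochberg over all genes, adjusted p under 0.05) on the 6 Dam::Pcl samples. Every adjusted p in the text is from limma. The fit was tested on simulated data. Peaks were called after the find_peaks procedure of the methods (quantiles 0.95 to 0.99, 100 shuffles, FDR under 0.01, at least 2 fragments) and kept where all 3 samples of a diet had one. Paralogs were aligned with biopython 1.88.

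The members, lists and tests were chosen with earlier results of these data known. The genes named are RpL32 and RpL3, every member of a paralog set, the 5 largest rises and 5 largest falls among called genes whose replicates do not overlap, the 5 highest and 5 lowest on CD, members at a common peak, and Abd-B; 1 gene of the lowest on CD is not reported here, and others were named after their values were seen. Starts are printed for the 3 largest rises and 3 largest falls off chromosome 2R. The comparison lists were taken by symbol (mRpL and mRpS; eIF and eEF; Prosalpha, Prosbeta, Rpn and Rpt), and 18 of 20 listed aminoacyl-tRNA synthetase names matched. Alternatives were quantile and MAD scaling, GC correction, the replicate number as a block, other windows, filters and thresholds, and leaving out each sample. The Dam-only samples were not analysed here.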

Additional observations from a re-analysis of the deposited data

How the results depend on the processing

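The ratios carry no depth, so precision rests on 3 samples per diet and on the few fragments of a window. The 23 ribosomal protein genes lower on SD stayed between 16 and 26 under all alternatives run. The 21 higher were 33 under quantile normalization (22 lower) and 33 with the samples brought to a common centre and median absolute deviation, MAD (22 lower); higher calls then made up 54.0% and 55.8% of the calls of all genes, against 46.4% as deposited. The 21 were 32 with 5 kb flanks, 13 at an adjusted p under 0.01, 10 after GC correction and 6 with GC correction and the replicate block. Over all genes the higher calls numbered 4576 with 5 kb flanks and 2562 after GC correction, against 4032 as deposited. For the threshold of 0.01 and for the GC correction with the block, the number over all genes is not given. The replicate number did not pair the samples (correlations of same-numbered deviations of -0.30, 0.21 and -0.21); with the replicate block alone 19 were higher and 21 lower, and 38 of the 44 calls were kept. Leaving out 1 sample gave 16 to 19 higher and 20 to 24 lower, and RpL32, RpL11, RpS23, RpS14b, RpL29, RpS19b, RpL26, RpS26, RpS15Aa and RpL37-1 lost their call in at least 1 such fit. The median difference of 0.04 was 0.0092 without SD sample 1, 0.060 without CD sample 1, -0.0096 around the start, 0.11 under quantile normalization and 0.43 under MAD scaling, which moved the median of all genes to 0.04 and 0.17, and it was -0.076 after GC correction, with or without the replicate block. The median over genes of the mean level on SD, -0.43, was -0.39 under quantile normalization, -1.28 under MAD scaling, -0.49 after GC correction, -0.42 over the span alone, -0.36 around the start, -0.23 with 5 kb flanks, -0.42 with at least 10 fragments and -0.44 to -0.42 without 1 sample. The level on CD, -0.32, was -1.23 under MAD scaling and -0.21 with 5 kb flanks. Values under MAD scaling, here and above, are in units of the MAD. They are not on the log2 scale, so their size cannot be set against the other settings. Among named genes called in either fit, the sign turned with 5 kb flanks at RpL3 (0.25), RpL24-like (0.16), RpL34a (0.26) and RpLP0-like (-0.34), after GC correction at RpL22 (-0.16) and RpS14b (-0.12), also with the block, around the start at RpS23 (-0.0064), and over the span alone at RpLP2 (1.52). Around the start alone RpS4 was called lower (-0.21) and RpL26 higher (0.68), against their calls over the window. Sign changes of genes called in neither fit, 14 after GC correction, are not listed. RpS29 and RpL4 (higher) and RpS5a and RpL39 (lower) were called in 1 direction in every refit at an adjusted p under 0.05; RpS28a and RpL38, with under 10 fragments each, dropped out under the filter of 10 fragments and kept their call in the others. The causes of these shifts were not tested.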
